A study of Saccharomyces cerevisiae with 40 samples.

Results

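The transcripts described here encode the proteins of the cytosolic small ribosomal subunit (40S) of Saccharomyces cerevisiae. The members were chosen with earlier results of these data known. They are defined by gene name: the 56 RPS genes, matched by systematic name, out of 6661 transcripts quantified in each library. They make up 32 protein families, of which 24 are encoded by a pair of paralogs, copy A and copy B, and 8 by a single gene, among them RPS2, RPS3, RPS12, RPS13, RPS15, RPS20 and RPS31. RNA-seq was carried out on the haploid laboratory strain GSY147, of S288c background and called S288c here, and on the haploid vineyard strain RM11. Cells were grown to mid-log phase in YM, a minimal medium of yeast nitrogen base and dextrose, or in YM supplemented with tryptophan (W), tyrosine (Y) and phenylalanine (F), called WYF here. They were left untreated or were exposed for 90 min to Credit41 (Cr41), a commercial herbicide formulation that contains glyphosate with additives, at 0.25%. The 8 groups of strain, medium and treatment each have 5 replicates, 40 libraries in all. The sources do not say whether the 5 replicates were separate cultures, so p-values measure the spread between these samples, which may be technical, and each strain is a single isolate. The untreated controls received no formulation, so glyphosate and the additives cannot be told apart.

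The 40S subunit binds the mRNA and the initiator tRNA and reads the codons, while the 60S subunit forms the peptide bond. In growing yeast the ribosomal protein genes are among the most heavily transcribed genes, and their promoters are bound by Rap1 together with Fhl1 and its partners Ifh1 (an activator) and Crf1 (a corepressor), under the control of the TORC1 and protein kinase A pathways. Many are left from an ancient genome duplication as pairs whose proteins are identical or nearly so, and transcription of the set as a whole falls under many stresses. Glyphosate inhibits the enzyme that makes a common precursor of the aromatic amino acids, and WYF supplies these amino acids from outside.

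Total estimated counts were 4224356 to 7866046 per library, with a median of 5729242. The small subunit genes took 2.41% to 4.95% of them. Counts of single genes lay between 66 (RPS21A) and 27567 (RPS15), so every one of the 56 passed the filter on low counts in every comparison. ASP3, an asparaginase gene cluster that S288c carries and many other strains lack, had 332 to 6075 counts in the S288c libraries and 0 to 14 in those of RM11. Reads of both strains were counted against S288c transcripts only. The YM libraries came from lane 2 of the sequencer and the WYF libraries from lane 3, so any difference between media cannot be told apart from one between lanes. In these bulk cultures fewer cells with a transcript and less of it per cell cannot be told apart either. Replicates of a group differed by more than sampling noise in every pair. RM11 with Cr41 in YM replicate 5, untreated S288c in WYF replicate 4 and untreated RM11 in WYF replicate 2 stood apart from their groups, and the counts of members called in comparisons that hold 1 of them are given with and without them.

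How well the copies of a pair can be told apart depends on how far their coding sequences differ, since the authors assigned the reads with Salmon, which divides a read that fits both copies between them. Over the 24 pairs the aligned coding sequences were 84.3% to 99.2% identical, with a median of 92.7%, and 9 pairs were over 95% identical. In 12 pairs fewer than 10% of the 31-base words of copy A (31 bases is a common index word length in Salmon) also occurred in copy B, and in 4 pairs more than 50% did. The counts of 13 members were whole numbers in every library and those of 23 were fractional in all 40 libraries. The following stretches of 60 coding bases show the range for pairs that recur below, with capitals at the bases that differ between the copies. They are from the RefSeq annotation of the R64 assembly, 5′ to 3′ on the coding strand. RPS6 is the pair whose copies differ most between the strains, RPS24 the pair whose balance moved most with Cr41 and RPS27 the pair with the lowest identity.
RPS6A, coding bases 82 to 141, chrXVI:377861-377920, reverse strand: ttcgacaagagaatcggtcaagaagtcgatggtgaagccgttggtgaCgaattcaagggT
RPS6B, coding bases 82 to 141, chrII:592282-592341, reverse strand: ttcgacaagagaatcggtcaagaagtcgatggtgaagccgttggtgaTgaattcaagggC
RPS24A, coding bases 343 to 402, chrV:307131-307190, forward strand: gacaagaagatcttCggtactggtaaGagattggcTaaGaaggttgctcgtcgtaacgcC
RPS24B, coding bases 343 to 402, chrIX:231559-231618, reverse strand: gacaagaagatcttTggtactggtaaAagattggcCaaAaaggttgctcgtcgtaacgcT
RPS27A, coding bases 130 to 189, chrXI:159093-159152, forward strand: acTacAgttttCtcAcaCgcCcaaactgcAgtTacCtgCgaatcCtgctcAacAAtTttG
RPS27B, coding bases 130 to 189, chrVIII:147931-147990, reverse strand: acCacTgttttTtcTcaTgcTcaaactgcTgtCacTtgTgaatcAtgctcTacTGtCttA
The RPS6 copies differed at 2 of these 60 bases and at 6 of 711 over the whole coding sequence (positions 27, 129, 141, 354, 666 and 672), and 79.7% of the 31-base words of RPS6A also occurred in RPS6B. The RPS24 copies differed at 5 of the 60 bases shown and at 12 of 408 in all, with 53.7% of words shared. The RPS27 copies differed at 16 of the 60 and at 39 of 249, with no word shared.

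The members move together in several of the comparisons below, so their promoters were searched for 4 motifs, on both strands: a Rap1 core spelled ACCCNNACA, an Fhl1-associated element spelled CCGCCTAG, and the PAC (GATGAG) and RRPE (AAATTT) elements known from genes of ribosome assembly. AAATTT reads the same on both strands, and none of the 4 spellings contains another. In the window from 250 bases before to 50 bases after the start of the annotated gene, the Rap1 core was found in 4 of 56 members (7.14%) and in 2.81% of 5980 windows of that length over the genome. In the 500 bases before the start codon, a window added after seeing the data, it was found in 18 of 56 members (32.1%), in 36 of 81 genes of 60S proteins (44.4%) and in 5.45% of 5979 windows. The Fhl1-associated letters were found in none of the 56 windows of the first kind (0.0836% of all) and in 1 of the second (0.418% of all). PAC was found in 7 members (12.5%, against 20.2% of all windows of the first kind) and RRPE in 23 (41.1%, against 32.5%), while each of these elements was found in 65 of 72 genes of 40S assembly factors (90.3%). A match is a description of letters and not a bound site. The matches upstream of RPS13 and RPS6A, chosen because these genes return below as large strain differences, are shown with the motif in capitals, 5′ to 3′ on the strand of the gene.
RPS13, chrIV:579213-579252, forward strand: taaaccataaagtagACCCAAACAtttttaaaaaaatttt
RPS6A, chrXVI:378801-378840, reverse strand: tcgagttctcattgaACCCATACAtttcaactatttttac
These matches lay 221 and 421 bases before the start codon. RPS6B, which returns below as a large strain difference too, had no match in the 500 bases before its start codon. The sequences are those of S288c, and whether the motif bears on the strain differences was not tested.

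As a sum, the transcripts of the small subunit proteins took a smaller share of the counts with Cr41 in both strains and both media, with the largest difference in S288c in YM. There the 56 genes took 4.40, 4.39, 4.40, 4.48 and 4.55% of the estimated counts in the untreated libraries and 2.45, 2.59, 2.53, 2.54 and 2.41% with Cr41. The groups did not overlap, and the mean share was 43.7% lower. The sum of TPM (counts set against transcript length and scaled to the same total in each library) was 40.7% lower and the sum of CPM (counts relative to library size after TMM scaling) 33.7% lower. In RM11 in YM the share was 4.34, 4.29, 4.40, 4.23 and 4.40% untreated and 3.72, 3.65, 3.61, 3.70 and 3.90% with Cr41. It was lower in all 5 treated libraries, by 14.3% in the mean, and the sums of TPM and CPM were 14.1% and 13.7% lower. In WYF the share was 14.7% lower in S288c and 10.5% lower in RM11, in both without overlap. In S288c in WYF the summed TPM and CPM differed by less, with means 8.73% and 5.36% lower and overlapping libraries, and untreated replicate 4 was low there at 98980 TPM, against 112587 to 120359 in the other untreated libraries. Without it they were 11.5% and 7.88% lower and did not overlap. In RM11 in WYF the summed TPM and CPM were 11.8% and 8.72% lower without overlap. The ratio of the summed TPM of 40S to 60S proteins overlapped between treated and untreated libraries in all 4 comparisons. No test was made on the sums.

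**Figure D1:**
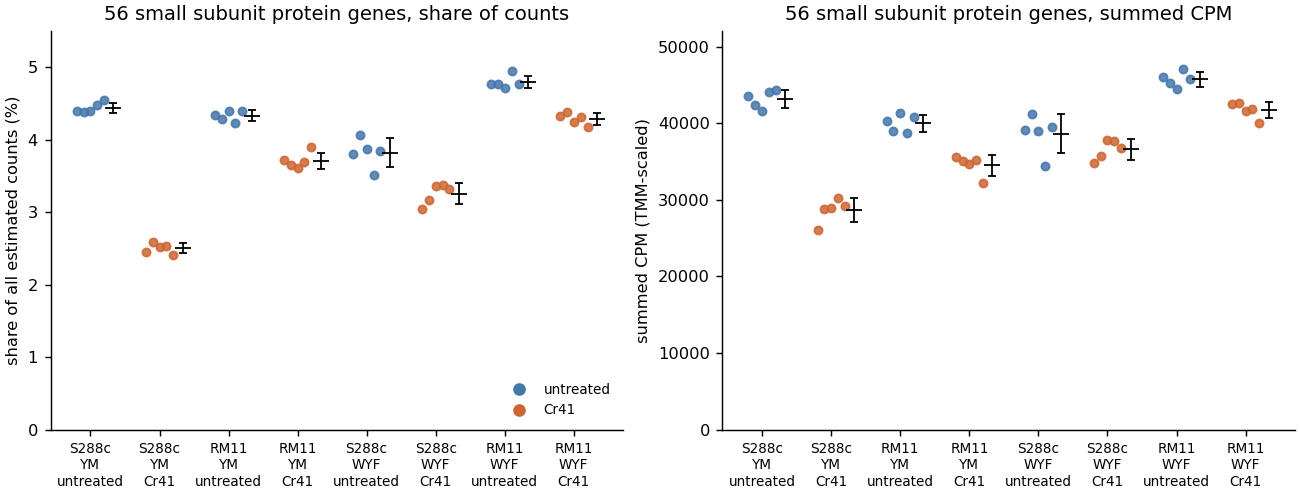
Summed level of the 56 small subunit protein genes in each of the 40 libraries, as a share of all estimated counts in percent (left) and as summed TMM-scaled CPM (right), with the mean and SD of the 5 replicates of a group. In S288c in YM the treated libraries sit at 2.41% to 2.59% of counts, below the untreated libraries at 4.39% to 4.55%.

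The comparison of Cr41 with untreated cells in S288c in YM asks how the strain responds in minimal medium. Of the 56 genes 45 were lower with Cr41 and 0 were higher at an edgeR adjusted p under 0.05 (Benjamini-Hochberg over 5716 transcripts). In the same test 34.2% of all transcripts were lower and 33.0% were higher. The median log2 fold change was -0.61 over the members and -0.003 over all transcripts tested. A fold change of at least 2 was reached by 4 of the 56, all lower, against 19.9% of all transcripts in either direction, so the members moved often but by moderate amounts. Large falls came from proteins of different places in the subunit. RPS14B (YJL191W, chrX:73787-74611, forward strand) encodes a protein of the platform, and Rps14 is known to repress the splicing of RPS14B itself. Its level was 172, 197, 177, 195 and 188 CPM in the untreated libraries and 79.8, 74.0, 76.7, 93.1 and 100.2 CPM with Cr41, in order of replicate. Every treated library lay below every untreated library (log2 fold change -1.17 ± 0.081 (SE), edgeR adjusted p = 9.83e-08). RPS22A (YJL190C, chrX:74910-75302, reverse strand), for a core protein of the body of the subunit, had 1729, 1730.3, 1671, 1848 and 1916 CPM in the untreated libraries and 772, 874, 804, 823 and 819 CPM with Cr41. The treated libraries were again all below the untreated ones (-1.16 ± 0.053 (SE), edgeR adjusted p = 3.17e-09).

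RPS15 (YOL040C, chrXV:253149-253577, reverse strand), a single gene for a head protein needed for export of the pre-40S particle, had 3905, 3682, 3624, 3938 and 3924 CPM in the untreated libraries and 1737, 2058, 2122, 1919 and 1852 CPM with Cr41. All treated libraries were below all untreated ones (-1.01 ± 0.061 (SE), edgeR adjusted p = 2.81e-08). RPS26A (YGL189C, chrVII:148229-148588, reverse strand) encodes a late-binding protein at the mRNA exit. Its levels were 511, 497, 468, 509 and 506 CPM in the untreated libraries and 249, 253, 285, 293 and 283 CPM with Cr41, without overlap (-0.91 ± 0.051 (SE), edgeR adjusted p = 1.57e-08).

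The 8 genes without a paralog were all lower with Cr41 in S288c in YM, and none of their groups overlapped. Besides RPS15, the log2 fold change was -0.74 for RPS3, which lines the mRNA entry, and -0.68 for its neighbour RPS20. It was -0.56 for RPS13 of the body and -0.51 for RPS12 of the beak of the head. RPS31, which is made as a fusion with ubiquitin, and RPS2, a protein of the mRNA entry, fell by less, with -0.41 and -0.34. The edgeR adjusted p of the 8 lay between 2.81e-08 and 0.000525. Among the 24 pairs both copies were lower in 15, 1 copy in 7 (among them RPS1, RPS19, RPS21, RPS23, RPS24 and RPS25) and neither in 2 (RPS27 and RPS30). No pair had its copies called in opposite directions. When the counts of the copies were summed before the fit, so that the division of reads between them no longer mattered, 29 of the 32 families were lower and 0 higher. RPS22 (-1.10) and RPS15 (-1.02) had the largest falls, and the 3 families not called were RPS23 (-0.14), RPS19 (-0.12) and RPS27 (0.04).

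The 11 genes that were not called included RPS25B, RPS27A and RPS19A, with positive log2 values. RPS25B, for the protein that viral internal ribosome entry sites require, had 28.4, 45.6, 34.8, 38.7 and 37.3 CPM in the untreated libraries and 41.1, 38.0, 35.0, 54.3 and 61.4 CPM with Cr41. Its groups overlapped, and its log2 fold change of 0.27 had a 95% interval of -0.05 to 0.58. RPS27A, for a zinc finger protein of the platform, had 371, 321, 353, 333 and 335 CPM in the untreated libraries and 379, 378, 394, 405 and 341 CPM with Cr41, also with overlap (log2 fold change 0.11 ± 0.060 (SE), edgeR adjusted p = 0.123). The log2 values of RPS19A (0.03), RPS1A (-0.02), RPS24B (-0.04) and RPS23A (-0.05) were near 0 as well. Genes with an intron and genes without were both mostly lower, 27 of 36 with a median of -0.59 and 18 of 20 with a median of -0.62. Of the 22 genes for proteins of the head 19 were lower, as were 26 of the 34 for the body and platform (medians -0.61 and -0.59). The places were assigned from textbook structure after the values had been seen. The 18 members with a Rap1 match in the 500 bases upstream are among both the called and the uncalled genes, for example RPS13 and RPS19A. When each replicate was left out in turn 44 of the 45 calls held in all 10 fits, the exception being RPS9A (-0.16 ± 0.063 (SE), edgeR adjusted p = 0.0417).

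**Figure D2:**
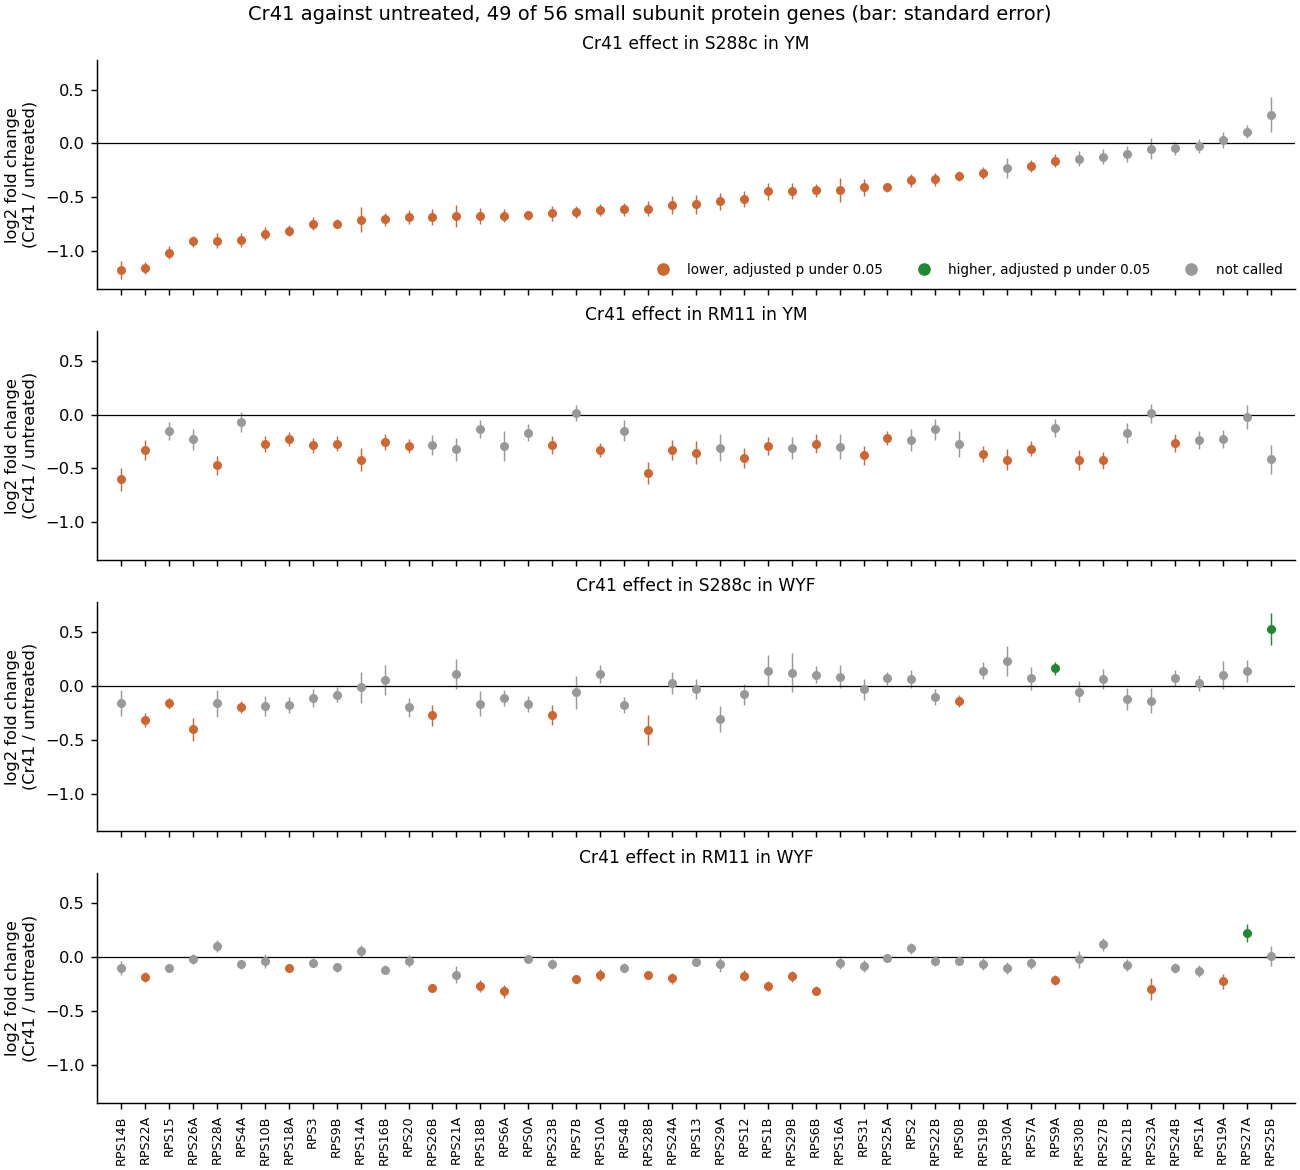
Log2 fold change with Cr41 of 49 of the 56 small subunit protein genes (x axis, ordered by the change in S288c in YM) in the 4 combinations of strain and medium, with bars for the standard error and colours for calls at an edgeR adjusted p under 0.05. In S288c in YM values run from -1.17 for RPS14B to 0.27 for RPS25B, and in the other 3 panels most lie closer to 0.

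The same exposure in RM11 in YM lowered 28 of the 56 genes and raised 0, while 7.28% of 5496 transcripts were lower and 7.99% were higher. The median log2 fold change was -0.28 over the members and 0.01 over all transcripts, and 54 of the 56 had values below 0. None reached a fold change of 2, which 1.66% of all transcripts did. The largest fall was again that of RPS14B, from 273, 277, 311, 279.7 and 286 CPM in the untreated libraries to 227, 164, 211, 193 and 147 CPM with Cr41. The groups did not overlap (log2 fold change -0.60 ± 0.10 (SE), edgeR adjusted p = 0.0014), and the untreated level was above that of S288c. RPS28B (YLR264W, chrXII:673131-673334, forward strand), for a small head protein that in yeast also controls the decay of its own mRNA, had 164, 150.2, 177, 155 and 152 CPM in the untreated libraries and 122, 109.7, 117, 117 and 79.9 CPM with Cr41. All treated libraries were lower, and replicate 5 was the lowest (-0.55 ± 0.10 (SE), edgeR adjusted p = 0.00231). RPS28A and RPS27B were also among the larger falls, with -0.47 and -0.42.

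Of the genes named above for large falls in S288c in YM, RPS15 and RPS26A were not called in RM11 in YM. Here RPS26A had 519, 504, 497, 506 and 422 CPM untreated and 349.6, 398, 399.6, 444 and 503 CPM with Cr41. The groups overlapped, and treated replicate 5, which stands apart, was the highest treated library and untreated replicate 5 the lowest untreated one. RPS15 had 3115 to 3322 CPM untreated and 2451 to 3062 CPM treated (-0.16 ± 0.082 (SE), edgeR adjusted p = 0.233). Of the single genes 5 were called lower (RPS3, RPS12, RPS13, RPS20 and RPS31), with log2 fold changes of -0.41 to -0.29, and 3 were not, RPS2 and RPS15 among them. The count of calls depends on single libraries. Without Cr41 replicate 5, in which the cell wall protein gene SED1 took 4.82% of counts against 7.94% to 8.81% in the other treated libraries and 5.10% to 5.46% in the untreated ones, 45 genes were lower. The part of that library's state in the result was not tested. Without untreated replicate 3 or without Cr41 replicate 2, 16 were lower. Of the 28 calls 15 held in all 10 fits with a replicate left out. With copies summed 18 of the 32 families were lower, led by RPS28 (-0.51) and RPS14 (-0.47).

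In S288c in WYF, where the aromatic amino acids were supplied, 9 of the 56 genes were lower with Cr41 and 2 were higher, while 25.4% of 5581 transcripts were lower and 22.7% higher, so the share of members called was below that of all transcripts. The median was -0.07 over the members and -0.01 over all transcripts, and none of the members reached the 2-fold change that 8.35% of transcripts did. RPS22A, with 1386, 1519, 1492, 1239 and 1353 CPM in the untreated libraries and 1064, 1119, 1184, 1145 and 1170.0 CPM with Cr41, fell without overlap (-0.32 ± 0.063 (SE), edgeR adjusted p = 0.000933). RPS26A had 406, 526, 487, 572 and 369 CPM in the untreated libraries and 332, 377, 360.0, 383 and 357 CPM with Cr41, with overlap because of untreated replicate 5 (-0.41 ± 0.11 (SE), edgeR adjusted p = 0.00609). RPS28B had 76.2, 83.3, 88.8, 134 and 80.8 CPM in the untreated libraries and 67.9, 72.6, 76.9, 69.8 and 68.5 CPM with Cr41. Its untreated replicate 4 stood far above the other libraries and the groups overlapped (-0.41 ± 0.14 (SE), edgeR adjusted p = 0.0241), and without that replicate the value was -0.23 (edgeR adjusted p = 0.0104). RPS25B rose from 51.9, 43.4, 34.8, 27.3 and 39.8 CPM to 48.0, 54.5, 63.5, 64.2 and 58.0 CPM. Only untreated replicate 1 reached into the treated range (0.53 ± 0.15 (SE), edgeR adjusted p = 0.00946). RPS9A, for a protein of the body at the mRNA entry, was the other higher gene (0.16 ± 0.060 (SE), edgeR adjusted p = 0.0384). Without the libraries that stand apart 17 genes were lower and 2 higher, 7 were called without Cr41 replicate 1 and 6 without Cr41 replicate 5, and 5 of the 11 calls held in all 10 fits.

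In RM11 in WYF 18 of the 56 genes were lower with Cr41 and 1 was higher, with 17.8% of 5469 transcripts lower and 17.8% higher. The median was -0.09 over the members and -0.003 over all transcripts, and none of the members reached a fold change of 2 (1.65% of transcripts did). The largest falls were those of the RPS6 pair, whose protein is phosphorylated in response to nutrient signals. RPS6A (YPL090C, chrXVI:377291-378395, reverse strand) had 439, 399, 364, 442 and 373 CPM in the untreated libraries and 332, 338, 330.2, 285 and 317 CPM with Cr41. RPS6B (YBR181C, chrII:591712-592774, reverse strand) had 1677, 1574, 1637, 1731 and 1642 CPM in the untreated libraries and 1357, 1296, 1362, 1351 and 1225 CPM with Cr41. Both copies were lower in all treated libraries (-0.32 ± 0.060 (SE), edgeR adjusted p = 0.000703, and -0.31 ± 0.041 (SE), edgeR adjusted p = 2.72e-05). RPS23A, for the protein at the decoding centre, RPS26B and RPS1B followed with -0.30, -0.29 and -0.27. The groups of RPS23A overlapped, with 770 to 1086 CPM untreated and 639 to 916 CPM with Cr41. Those of RPS26B and RPS1B did not overlap. RPS27A rose, with 289.7, 262, 291, 299.6 and 325 CPM in the untreated libraries and 354, 403, 297, 357 and 285 CPM with Cr41, overlapping groups and a call that held in 3 of 10 fits with a replicate left out (0.22 ± 0.081 (SE), edgeR adjusted p = 0.0465). Without untreated RM11 in WYF replicate 2, which stands apart, 18 genes were lower and 0 higher, and RPS27A was not called (0.18, edgeR adjusted p = 0.113). Of the single genes only RPS12 was called (-0.17 ± 0.053 (SE), edgeR adjusted p = 0.018). Over the 4 comparisons with Cr41, RPS22A and RPS28B were called lower in each. Another 9 genes were called lower in 3, 24 in 2 and 17 in 1, and RPS1A, RPS21B, RPS25B and RPS27A in none. The same tally was not made over all transcripts. Of these 34.2% and 7.28% were lower in S288c and RM11 in YM, and 25.4% and 17.8% in WYF.

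Whether the response differed between strains or media was tested with interaction terms. In YM the response of 27 members was lower in S288c than in RM11 and that of 3 was higher, RPS25B and RPS27B among them, against 28.4% and 25.7% of 5795 transcripts. Among the largest differences were those of RPS15 (-0.86) and RPS22A (-0.83). With library totals only, that is without scaling factors, all transcripts shifted by -0.19 (log2) in this comparison and 37 members were lower and 0 higher. Relative to that shift the median of the members was -0.27. Without the library that stands apart 27 were lower and 6 higher. In WYF the strains differed in their response for 6 members, 4 higher in S288c and 2 lower (15.0% and 20.1% of 5669 transcripts). With library totals only all transcripts shifted by -0.10 here, and 2 members were higher and 6 lower. Relative to that shift the median of the members was 0.01. Without the libraries that stand apart 5 were higher and 2 lower. Those with the largest differences were RPS25B (0.53), RPS6B (0.43) and RPS9A (0.38).

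Between media, the response of S288c was lower in YM than in WYF for 40 members and higher for 0, whereas 19.6% of 5754 transcripts were lower and 21.4% were higher. The median difference was -0.50 over the members and 0.05 over all transcripts. RPS14B had the largest difference (-1.01 ± 0.16 (SE), edgeR adjusted p = 2.59e-05), and its level in WYF was 165, 153, 152, 95.6 and 131 CPM untreated and 117, 124, 129.6, 130.2 and 131 CPM treated. Its treated libraries thus lay within the untreated range in WYF, a range that untreated replicate 4 (95.6 CPM) widened, and far below it in YM. Without that replicate 4 of the 5 treated libraries in WYF lay below the untreated ones, RPS14B was called lower there (-0.27, edgeR adjusted p = 0.00602), and the difference between media was -0.90 (edgeR adjusted p = 3.04e-06). In RM11 the response was lower in YM for 12 members and higher for 0 (5.12% and 6.10% of 5545 transcripts), with a median of -0.18. Here RPS28A (-0.59), RPS27B (-0.56) and RPS14B (-0.51) differed most. Without the libraries that stand apart the counts were 40 in S288c and 15 in RM11.

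The balance between paralogs was taken as the share of copy A in the summed TPM of a pair. Copy A was the higher copy in all 40 libraries in 11 pairs, copy B in 9, and the order changed between libraries in 4. With Cr41 in S288c in YM the share moved without overlap between the groups in 15 of 24 pairs, up in 8 and down in 7, while this was so for 54.3% of 35 duplicated genes of 60S proteins. In RM11 in YM it did so in 2 of 24 (0% of the 60S pairs), in S288c in WYF in 2 of 24 (2.86%), or 4 without the untreated library that stands apart, and in RM11 in WYF in 2 of 24 (14.3%). The pair that moved most was RPS24, whose protein lies in the lower body of the subunit. The share of RPS24A in S288c in YM was 64.7, 68.8, 65.2, 67.3 and 64.3% untreated and 55.4, 53.9, 54.1, 60.4 and 62.2% with Cr41. All treated libraries were below all untreated ones, and the mean changed from 66.0% to 57.2% (two-sided exact permutation test, p = 0.00794, the smallest value that 5 against 5 libraries allow, n = 5 and 5).

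RPS21A, for a small protein of the platform side, had shares of 27.3, 26.2, 27.8, 24.9 and 25.3% untreated and 20.01, 15.6, 17.8, 19.4 and 22.3% treated in S288c in YM. The groups did not overlap and the mean moved from 26.3% to 19.0% (exact permutation p = 0.00794). RPS9A moved the other way, from 18.8, 16.7, 16.7, 16.5 and 18.3% to 25.9, 23.5, 25.4, 22.2 and 23.3%. Here too all treated libraries were apart from the untreated ones, with means of 17.4% and 24.05% (exact permutation p = 0.00794), and RPS9B fell by 0.74 on the log2 scale and RPS9A by 0.16. RPS14A rose in share from 72.6, 73.6, 74.4, 74.3 and 72.9% to 79.2, 77.6, 78.3, 80.9 and 80.0%, without overlap (means 73.5% and 79.2%, exact permutation p = 0.00794). In RM11 in YM the same share went from 71.5% to 74.0%, also without overlap (exact permutation p = 0.00794), and that of RPS7A went from 8.22% to 6.69%, against 7.41% to 9.78% in S288c. The other pairs without overlap in S288c in YM moved by less. The mean share of copy A was lower in RPS0, RPS4, RPS6 and RPS22, among others, and higher in RPS1, RPS7, RPS19 and RPS23, among others. In RPS19 it crossed the middle, from 48.7% to 54.1%. RPS27A in RM11 in YM had 64.1, 69.9, 60.8, 65.8 and 60.4% untreated and 66.6, 72.6, 68.9, 68.1 and 76.7% treated. These groups overlapped, and the means of 64.2% and 70.6% had an exact permutation p of 0.0476. The 5 pairs were those with the largest changes over the 4 comparisons, so their p-values, which are not adjusted, describe pairs chosen for the size of the change.

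**Figure D3:**
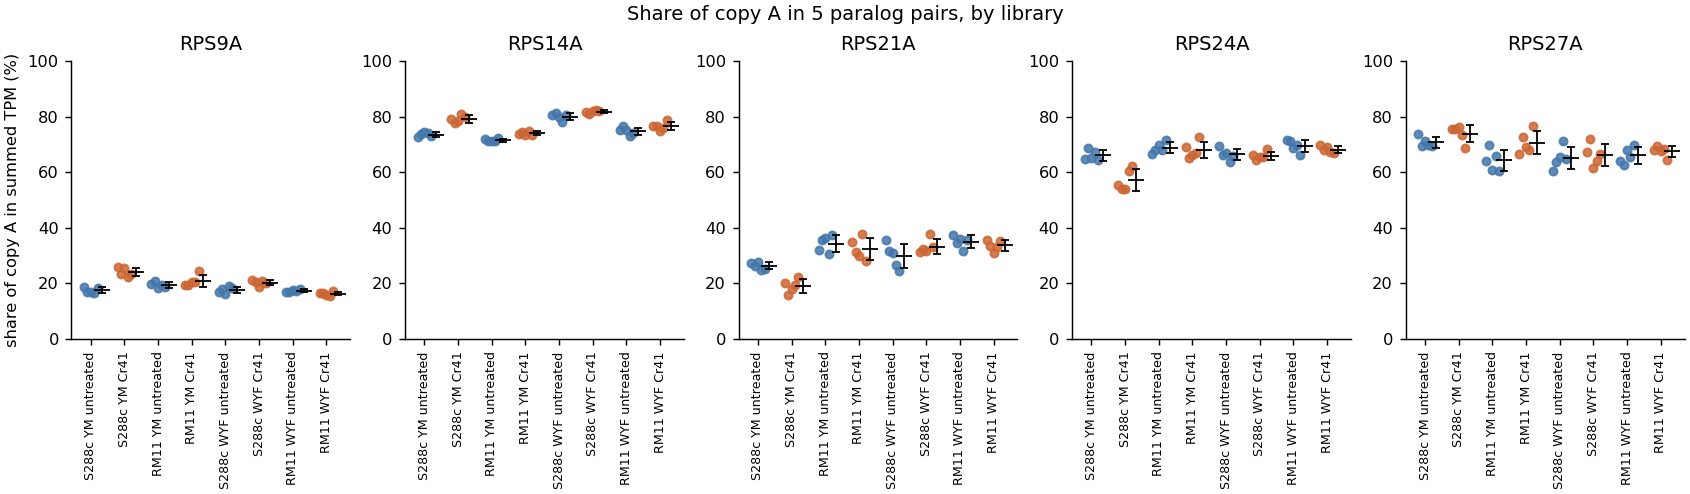
Share of copy A in the summed TPM of its pair, in percent, in each of the 40 libraries for the 5 pairs whose share moved most with Cr41, with the mean and SD of each group of 5. In S288c in YM the mean share of RPS24A is 66.0% untreated and 57.2% with Cr41, and that of RPS9A 17.4% and 24.05%.

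Between the untreated strains in YM, 20 of the 56 genes were higher in S288c than in RM11 and 15 were lower, against 36.2% and 35.3% of 5608 transcripts, with a median of 0.03. With library totals only, all transcripts shifted by -0.07 (log2) in this comparison and 13 members were higher and 22 lower. Relative to that shift the median of the members was 0.03. In WYF 2 were higher and 30 lower (26.7% and 27.5% of 5604 transcripts), with a median of -0.26, and without the libraries that stand apart 2 and 32. A difference of at least 2-fold was reached by 3 members in each medium, against 15.1% of transcripts in YM and 10.8% in WYF, and it was the same 3: RPS6A, RPS6B and RPS13. RPS6A had 1479, 1404, 1360.2, 1471 and 1506 CPM in S288c and 327, 262, 422, 298 and 474 CPM in RM11, untreated in YM. RPS6B had 611, 633, 629, 623 and 672 CPM in S288c and 1482, 1341, 1563, 1434 and 1645 CPM in RM11. The copies thus stood in opposite order in the strains, with no overlap for either (RPS6A 2.02 ± 0.13 (SE), edgeR adjusted p = 2.19e-08, RPS6B -1.24 ± 0.054 (SE), edgeR adjusted p = 3.90e-10). In WYF the log2 differences were 1.39 and -1.66. In YM RPS6A made up 69.4% of the TPM of the pair in S288c and 19.0% in RM11. In WYF these shares were 66.7% and 19.5%. Summed over the copies the CPM were 1989.7 to 2178 in S288c and 1602 to 2119 in RM11 in YM, with overlap. In WYF the order was reversed without overlap, with 1372 to 1685 CPM in S288c and 1973 to 2172 CPM in RM11.

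The copies of RPS6 differ at few coding positions, as printed above, and the reads of RM11 were counted on S288c sequences. The part of this in the opposite order of the copies was not tested. Nor was the part of the S288c sequences in the other strain differences, that of RPS13 among them. RPS13, which has no paralog, had 450.3, 514, 477, 541 and 508 CPM in S288c and 200.3, 185, 229, 209.5 and 199 CPM in RM11 in YM. All S288c libraries were above all RM11 libraries (1.28 ± 0.064 (SE), edgeR adjusted p = 1.42e-09), and likewise in WYF (1.15 ± 0.084 (SE), edgeR adjusted p = 1.59e-07). In YM the copies of 7 pairs were called in opposite directions between the strains (among them RPS0, RPS6, RPS19, RPS21, RPS22 and RPS25). In WYF this was so for RPS6 alone. Of all transcripts 36.2% were higher and 35.3% lower in YM, and 26.7% and 27.5% in WYF. How often copies of other pairs, or genes that are not paralogs, were so called was not counted. The share of copy A did not overlap between the strains in 13 of 24 pairs in YM and in 4 of 24 in WYF, against 57.1% and 40% of the 35 duplicated genes of 60S proteins. Without the libraries that stand apart it was 6 of 24 in WYF (45.7% of the 60S pairs). RPS14B and RPS28B were lower in S288c in both media, with log2 differences of -0.62 and -0.58 in YM and -0.95 and -0.93 in WYF.

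**Figure D4:**
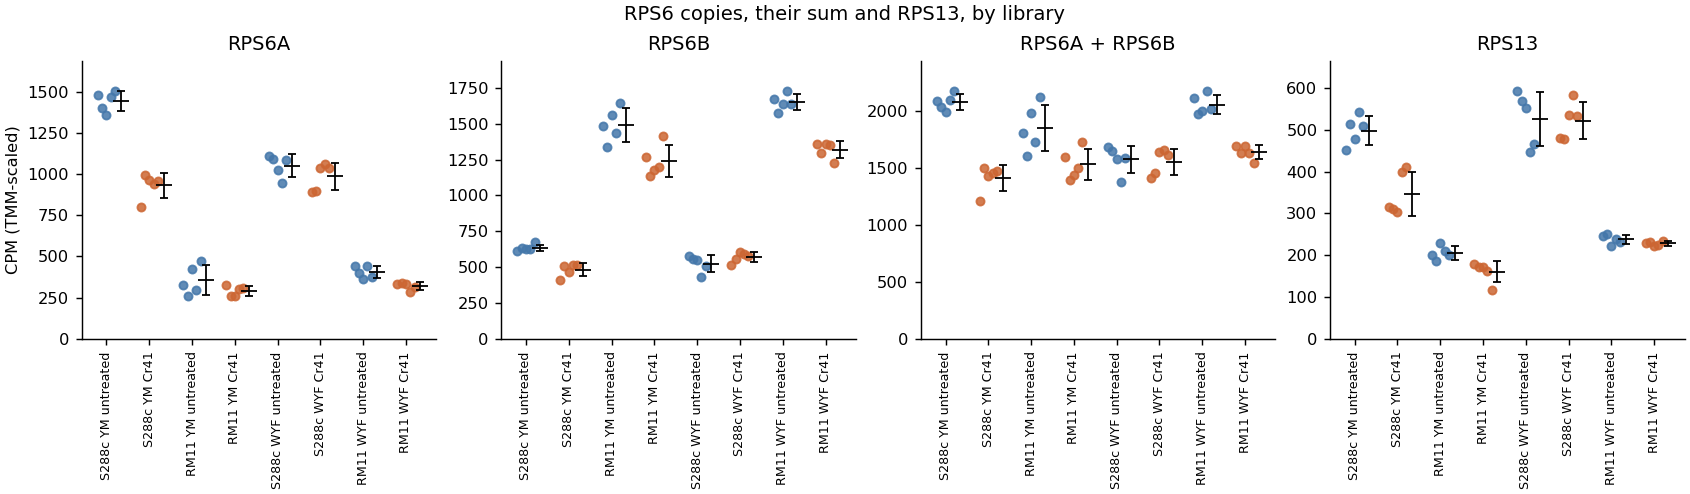
TMM-scaled CPM of RPS6A, RPS6B, their sum and RPS13 in each of the 40 libraries, with the mean and SD of each group of 5. The RPS6 copies are in opposite order in S288c and RM11, while RPS13 is higher in every S288c library, at 302 CPM or more, than in any RM11 library.

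Between the untreated media, 14 members were lower and 1 higher in WYF than in YM in S288c (20.6% and 20% of 5581 transcripts), with a median of -0.15, and without the libraries that stand apart 21 were lower and 3 higher. In RM11 22 were higher and 0 lower (13.2% and 13.2% of 5499 transcripts), with a median of 0.14, and 23 were higher without the library that stands apart. The largest falls in S288c among the genes named here were those of RPS26B (-0.58 ± 0.10 (SE), edgeR adjusted p = 0.000813) and RPS6A (-0.47 ± 0.058 (SE), edgeR adjusted p = 6.33e-05). In RM11 RPS15 went from 3115 to 3322 CPM in YM to 3777 to 3931 CPM in WYF without overlap (0.24 ± 0.034 (SE), edgeR adjusted p = 9.85e-05). RPS22A was lower in WYF in S288c (-0.36) and higher in RM11 (0.25). These differences carry the lane as well as the medium.

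Levels of different genes were compared in TPM, which allows for length. RPS29B, for a small zinc-binding protein of the head, was the highest member in every group, with group means of 16959 to 28565 TPM. Its coding sequence of 171 bases leaves an effective length of 41 to 49 bases, so this TPM value rests strongly on the length correction. The median member had 719 to 1187 TPM. RPS21A was among the lowest members in every group. Within untreated S288c in YM, RPS21A (144 to 159 TPM) and RPS25B (124 to 199 TPM), neighbours in the order, overlapped, but in S288c in YM with Cr41 they did not (71.3 to 90.0 and 136 to 217 TPM).

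Genes that work beside the small subunit proteins were counted from lists written with earlier results of these data known. In S288c in YM 69 of 81 genes of 60S proteins were lower with Cr41 and 3 were higher, with a median of -0.45 and the largest falls in RPL2A (-1.48) and RPL37B (-1.23). Of 72 factors that assemble the 40S subunit 43 were lower and 2 higher (median -0.38), led by SGD1 (-1.28) and UTP30 (-1.06). Of 15 initiation factors and partners of the 40S subunit 12 were lower and 0 higher (median -0.42), led by FUN12 (-0.79), which joins the subunits, and TIF34 (-0.75), a subunit of eIF3. Proteins of the mitochondrial small subunit, which belong to another ribosome, had 12 of 31 lower and 2 higher (median -0.16). In RM11 in YM calls were made among the cytosolic proteins of both subunits and in 1 of the factors. There 37 genes of 60S proteins were lower and 0 higher (median -0.26), against 1 lower of 72 assembly factors (SNU13, -0.55), 0 of 15 initiation factors and 0 of 31 mitochondrial proteins, in a test in which 7.28% of all transcripts were lower. These counts in RM11 in YM hold Cr41 replicate 5, which stands apart and without which 45 members rather than 28 were lower. The lists were not counted without the libraries that stand apart in any comparison. In S288c in WYF 14 genes of 60S proteins were lower and 2 higher, and the assembly factors had 13 lower and 9 higher. Both lists' shares were below those of all transcripts there, of which 25.4% were lower and 22.7% higher. In RM11 in WYF, where 17.8% of all transcripts were lower and 17.8% higher, 24 genes of 60S proteins were lower and 2 higher. The assembly factors had 42 lower and 0 higher in RM11 in WYF (median -0.23), where 17 of 31 mitochondrial proteins were lower too.

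**Figure D5:**
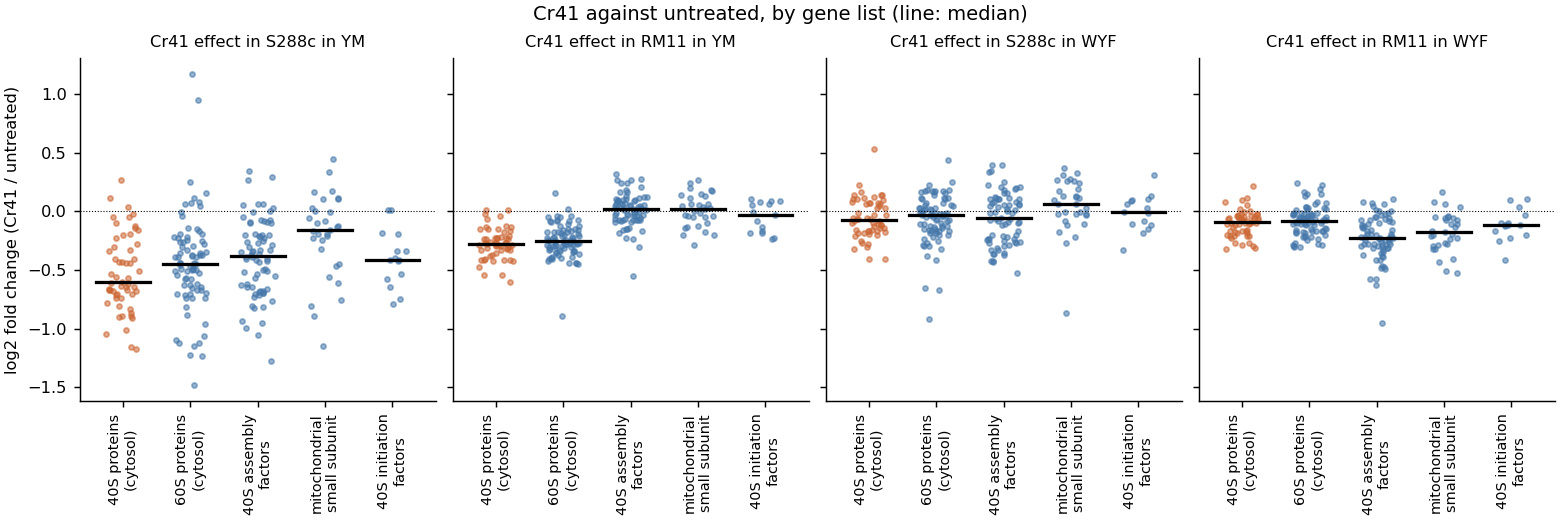
Log2 fold change with Cr41 of every gene in 5 lists, in the 4 combinations of strain and medium, with a line at the median of each list. The median of the 40S proteins is -0.61 in S288c in YM and -0.28 in RM11 in YM, where the assembly factors have a median of 0.02.

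Of 19 genes for regulators of ribosomal protein genes, 6 were higher and 4 lower with Cr41 in S288c in YM, in a test in which 33.0% of all transcripts were higher and 34.2% lower, so neither share stood above that of all transcripts. CRF1, the corepressor, rose most (1.87, edgeR adjusted p = 0.000156), and FHL1 (-0.79, edgeR adjusted p = 3.92e-06) and RAP1 (-0.45, edgeR adjusted p = 1.16e-05), which bind the promoters, fell. STB3 (-0.47) and DOT6 (-0.42), repressors of ribosome synthesis genes, were the other 2 that fell. SFP1, an activator of these genes, rose (0.39), as did BCY1 (0.35), the regulatory subunit of protein kinase A, TOR1 (0.27) and TOR2 (0.17). In S288c in WYF, where 22.7% of all transcripts were higher and 25.4% lower, CRF1 also rose (1.02), and RAP1 (-0.85) and FHL1 (-0.50) fell. In RM11 in WYF, where 17.8% of all transcripts were higher and 17.8% lower, CRF1 (0.65) and MAF1 (0.33), another of the 19, rose. FHL1 (-0.25), RAP1 (-0.20) and HMO1 (-0.27), a DNA-binding protein of these promoters, fell there. The genes named for WYF are a selection from the 19. In RM11 in YM 3 of the 19 were called, and of these LST8 (-0.44), a TORC1 subunit, and HMO1 (-0.27) fell. The values are log2 fold changes of transcripts and say nothing of the activity of these proteins.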

How the data were processed

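RNA was extracted with hot phenol and paired-end libraries were built with a ScriptSeq yeast kit. The authors quantified reads of both strains with Salmon 0.13.1 on S288c transcripts only, of a release that is not given in the sources used here. The estimated counts deposited by the authors are not normalized and were rounded here. TPM values, also deposited, divide those counts by effective length and scale every library to the same sum. Of 6661 transcripts 5993 were matched by name to RefSeq, and all 56 members had the R64 coding length.

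Comparisons were fitted with edgeR 4.0.16 under R 4.3.3 (filterByExpr, TMM, quasi-likelihood test, Benjamini-Hochberg adjustment over all transcripts, called at 0.05) on the libraries of the groups compared, and interactions on 20 libraries. CPM in the text use TMM factors over all 40 libraries. Paralog shares were tested by two-sided exact permutation. The code was tested on simulated counts. Depth was 4224356 to 7866046 counts per library, and the biological coefficient of variation of the fits lay between 7.95% and 15.1%.

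Members, lists and comparisons were chosen with earlier results of these data known. The members given with values were those with the 5 largest called changes in each Cr41 comparison, the 8 single genes, the 5 pairs whose share moved most, the highest and lowest by TPM and those with large interactions. Some of these, and 7 of the 56 members in all, enter the counts but are not reported here by name. The alternatives were RLE factors, library totals only, effective lengths as offsets, DESeq2 1.42.0, limma 3.58.1 on log2(TPM + 1), other low-count filters, a stricter threshold, a 2-fold minimum, blocking on replicate number, 1 fit of all libraries, summed copies and each replicate left out. Leaving out the libraries that stand apart was added after seeing the data.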

Additional observations from a re-analysis of the deposited data

Results flagged for a closer look

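Sets of 5 replicates were examined, by group, for the CPM of members picked by the rule given above and reported by name, not of all members. The summed levels and the shares of copy A in the 5 pairs whose share moved most were examined too. Of these 296 sets, 15 held a library whose gap to the nearest other replicate exceeded Dixon's critical value of 0.71 of the group's range. That is 5.07%, and chance alone gives about 1 in 20. RM11 with Cr41 in YM replicate 5 accounted for 7 of the 15. It was low in the summed CPM of the small subunit genes (32154), in RPS13 (117 CPM), RPS15 (2451 CPM) and RPS2 (562 CPM), and high in RPS26B (1212 CPM), in RPS9A (247 CPM) and in the share of RPS9A in its pair (24.5%, against 19.4% to 20.4% in the other replicates). Its SED1 share is given in the report.

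The other libraries far from their group held 1 or 2 values each. Untreated RM11 in WYF replicate 4 was high in the share of counts taken by the small subunit genes (4.95%) and its RPS1B level was 1352 CPM. Untreated S288c in WYF replicate 4 had 82.7 CPM of RPS21B and 134 CPM of RPS28B. RPS23A was at 1486 CPM in untreated S288c in YM replicate 1 and RPS26A at 422 CPM in untreated RM11 in YM replicate 5. In RM11 with Cr41 in WYF, RPS23B was at 256 CPM in replicate 1 and RPS3 at 572 CPM in replicate 3.

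Responses to Cr41 that differed between strains or media by the interaction test of edgeR were found for 30 members between strains in YM, 6 between strains in WYF, 40 between media in S288c and 12 between media in RM11. Large log2 differences among the genes named here were -0.86 (RPS15), -0.83 (RPS22A) and -0.68 (RPS26A) between strains in YM, and 0.53 (RPS25B), 0.43 (RPS6B) and 0.38 (RPS9A) between strains in WYF. Between media they were -1.01 (RPS14B), -0.84 (RPS15) and -0.83 (RPS22A) in S288c and -0.59 (RPS28A), -0.56 (RPS27B) and -0.51 (RPS14B) in RM11. Medium and sequencing lane cannot be told apart in the latter pair of tests. The tests between strains in YM and between media in RM11 hold RM11 with Cr41 in YM replicate 5, which stands apart.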

How the results depend on the processing

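Counts below are members called, of 56 (families, of 32, where copies were summed). With a 2-fold minimum, Cr41 gave 4 in S288c in YM and 0 in each of S288c in WYF, RM11 in YM and RM11 in WYF, the interactions 0 between strains in YM, 0 between strains in WYF, 1 between media in S288c and 0 between media in RM11, the strains 3 in YM and 3 in WYF, and the media 0 in S288c and 0 in RM11. With copies summed, Cr41 gave 29 in S288c in YM, 7 in S288c in WYF and 18 in RM11 in YM, the interactions 17 between strains in YM, 2 between strains in WYF and 5 between media in RM11, the strains 21 in YM and 19 in WYF, and the media 8 in S288c. At an adjusted p under 0.01, Cr41 gave 5 in S288c in WYF and 14 in RM11 in YM, the interactions 2 between strains in WYF and 2 between media in RM11, the strains 19 in WYF, and the media 7 in S288c and 13 in RM11. With library totals only, Cr41 gave 23 in S288c in WYF and the media interaction in RM11 gave 6. DESeq2 gave 10 for the strain interaction in WYF, and limma on log2(TPM + 1) gave 5 for the media interaction in RM11 and 20 for the strains in WYF. A single fit of all libraries gave 7 for Cr41 in RM11 in WYF, 4 for the media interaction in RM11, and 23 and 14 for the media in S288c and RM11. Without the libraries that stand apart, 19 were called with Cr41 in S288c in WYF, 45 in RM11 in YM and 24 between media in S288c, and 4 pairs had a share of copy A without overlap in S288c in WYF. The fewer calls with stricter thresholds follow from their construction. With summed copies there were fewer units to call, 32 families in place of 56 members. Whether this accounts for all of the fewer calls with summed copies was not tested, nor was the cause of the other shifts.

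Leaving out 1 replicate at a time, the counts with Cr41 ranged from 44 to 47 in S288c in YM, 6 to 19 in S288c in WYF, 16 to 45 in RM11 in YM and 15 to 20 in RM11 in WYF. The interactions ranged from 27 to 33 (strains, YM), 3 to 8 (strains, WYF), 38 to 42 (media, S288c) and 5 to 21 (media, RM11), the strains from 34 to 38 in YM and 26 to 35 in WYF, and the media from 12 to 24 in S288c and 18 to 25 in RM11. Pairs whose share of copy A did not overlap ranged from 15 to 17, 2 to 3, 2 to 4 and 2 to 4 in S288c in YM, RM11 in YM, S288c in WYF and RM11 in WYF. Moves of at least 5 percentage points without overlap were seen in 8, 0, 0 and 0 pairs. The summed level in S288c in YM changed by -43.67% as a share of counts and by -33.69% in CPM, and in RM11 in WYF by -8.72% in CPM.

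The sources do not say whether samples with the same replicate number belong together. Their deviations from the group means correlated at -0.07 to 0.10 on average in each strain and medium. Single correlations lay between -0.35 (replicate 1) and 0.55 (replicate 4), both in S288c in YM. With the replicate block Cr41 called 45, 8, 20 and 18 members in S288c in YM, S288c in WYF, RM11 in YM and RM11 in WYF, and all 5 same-numbered differences in the share of copy A had 1 sign in 17 pairs in S288c in YM, 4 in RM11 in YM, 4 in S288c in WYF and 8 in RM11 in WYF. Over 4224 values of single members under other settings 3772 kept direction and side of the threshold, 328 lost a call, 123 gained one and 1 reversed: RPS27B between strains in YM, -0.03 with edgeR and 0.14 with limma (adjusted p = 0.0147). With a replicate left out 4802 of 5120 were unchanged in this sense and none reversed. Depth limits the lowest genes most, such as RPS21A with 66 counts in the library where it was lowest.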
